A study of Mus musculus with 9 samples.

Results

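Long intergenic non-coding RNAs (lincRNAs) are transcripts from between protein-coding genes that carry no long reading frame. The 100 most abundant of them were followed in the duodenum of wild-type (WT) mice and of mice with a mutation in Pla2g12b. Members were taken from the rows that the deposited table classes as lincRNA, leaving out those on the X and Y chromosomes. They were chosen by their level: each library was scaled to CPM, the read count per column total scaled to a common size, and the 100 genes with the highest mean over all 9 libraries were kept. They were 100 of 4915 lincRNA rows not on X or Y, 3024 of which had no read in any library. The level therefore chose the members and is given as a description. The difference between genotypes was not used, although a gene abundant in 1 genotype can enter through it.

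All animals were age-matched male C57BL/6 mice on chow for 3 months. The WT group had 4 libraries and the mutant group 5. PLA2G12B, a secreted phospholipase A2 without enzyme activity, helps to load lipid onto lipoproteins. The series title names C129Y as a dominant negative change in it, but the labels of the mutant mice leave their change unnamed. Pla2g12b RNA was present in all libraries. It measured 103.1, 104.2, 77.5 and 75.6 CPM in WT 1 to 4 and 133.8, 102.3, 106.9, 129.2 and 132.4 CPM in mutants 1 to 5. The groups overlapped, and it was called higher in mutants, by 0.42 on the log2 scale (SE 0.13; edgeR adjusted p = 0.023). A point mutation cannot be read from its level. Library totals ran from 16119639 to 24009157 reads. The libraries were poly(A)-selected and unstranded, so where genes overlap or run antisense their reads cannot be told apart.

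2 features of these libraries touch many results below. First, libraries formed close pairs within each genotype: in WT, 1 and 2 and likewise 3 and 4; in mutants, 2 and 3 and likewise 4 and 5, leaving mutant 1 alone. The coefficient of variation between libraries was 0.037 to 0.0499 inside pairs and 0.19 to 0.251 otherwise. P-values treat the 9 libraries as independent, which the labels do not state beyond separate mouse numbers, so key calls are given again with the counts of each close pair summed. Second, cell type markers moved with genotype. Enterocyte markers were abundant in all libraries, at a summed 41580 to 49720 CPM in WT and 51060 to 71910 CPM in mutants. Pancreatic acinar markers summed to 36280 to 77410 CPM in WT and 15.2 to 19.7 CPM in mutants, and 17 of 17 tested were lower in mutants. Markers of endothelium (11 of 12), goblet cells (8 of 10) and Paneth cells (8 of 9) were also lower. With close pairs summed, 17 acinar, 7 endothelial, 7 goblet and 6 Paneth cell markers were lower. In bulk tissue, fewer cells of a type and less RNA per cell cannot be told apart.

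As background, most lincRNAs are less abundant than messenger RNAs and are named only by a clone or a number. The few that are abundant in nearly every tissue have known duties. NEAT1 is the scaffold of nuclear paraspeckles, and MALAT1 collects in nuclear speckles beside splicing factors. Others are spliced chiefly to release small nucleolar RNAs (snoRNAs), which guide chemical modification of ribosomal RNA, or to release microRNAs, which repress messenger RNAs through a seed at their 5′ end.

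Sequences are shown first for members whose description rests on a small RNA or on their start. The second most abundant member, 1700020I14Rik, is the mouse Cyrano RNA. Cyrano is known to direct the decay of the microRNA miR-7 through a site that pairs with its seed and its 3′ end. The microRNA is from the RefSeq annotation of GRCm38.p6, and both sites are from the longest GENCODE M21 transcript of the gene, at positions 744 to 769 and 2934 to 2959. Capitals mark the seed (bases 2 to 8) and its match.
mmu-miR-7a-5p: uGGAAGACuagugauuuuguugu
Cyrano site at 744: tcaggttttttttttaatGTCTTCCa
Cyrano site at 2934: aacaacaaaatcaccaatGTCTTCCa
The site at 2934 has 13 further bases in a row that pair with the 3′ part of miR-7a-5p, while the site at 744 has no such run of 4 or more. MicroRNA levels were not measured in these libraries.

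4 members carry microRNA genes, and the microRNAs of 2 are shown since these hosts behaved differently. AL805899.1 spans Mir31, and Mir17hg is the host of the miR-17 to 92 cluster. Mature sequences from RefSeq (GRCm38.p6) are given with the seed in capitals.
mmu-miR-31-5p (chr4:88910614-88910635, minus strand): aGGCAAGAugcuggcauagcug
mmu-miR-31-3p (chr4:88910577-88910599, minus strand): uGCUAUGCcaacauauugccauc
mmu-miR-17-5p (chr14:115043684-115043706, plus strand): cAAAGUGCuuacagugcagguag
mmu-miR-20a-5p (chr14:115044183-115044205, plus strand): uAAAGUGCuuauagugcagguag
mmu-miR-18a-5p (chr14:115043867-115043889, plus strand): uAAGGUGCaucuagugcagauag
mmu-miR-19a-3p (chr14:115044048-115044070, plus strand): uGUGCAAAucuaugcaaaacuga
mmu-miR-19b-3p (chr14:115044358-115044380, plus strand): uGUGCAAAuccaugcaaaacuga
mmu-miR-92a-3p (chr14:115044476-115044496, plus strand): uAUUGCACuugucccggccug
In this cluster miR-17-5p and miR-20a-5p share the seed AAAGUGC, and miR-19a-3p and miR-19b-3p share GUGCAAA. The seeds of miR-18a-5p and miR-92a-3p are each unlike the others.

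The promoter windows of 2 snoRNA hosts are shown because such hosts are known for starting within a run of pyrimidines, the 5′ terminal oligopyrimidine tract that ribosomal protein genes also carry. Each RefSeq window (GRCm38.p6) runs from 250 bases before to 50 after the annotated start, and capitals mark the pyrimidine run at the start.
Snhg18 (chr15:32244613-32244912, minus strand): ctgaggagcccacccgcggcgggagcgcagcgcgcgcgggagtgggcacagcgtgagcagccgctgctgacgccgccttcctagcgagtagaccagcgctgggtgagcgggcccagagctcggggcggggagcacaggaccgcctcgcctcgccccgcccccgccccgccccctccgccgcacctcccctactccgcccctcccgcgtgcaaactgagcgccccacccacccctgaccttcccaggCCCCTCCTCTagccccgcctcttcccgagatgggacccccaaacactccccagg
Snhg12 (chr4:132308428-132308727, plus strand): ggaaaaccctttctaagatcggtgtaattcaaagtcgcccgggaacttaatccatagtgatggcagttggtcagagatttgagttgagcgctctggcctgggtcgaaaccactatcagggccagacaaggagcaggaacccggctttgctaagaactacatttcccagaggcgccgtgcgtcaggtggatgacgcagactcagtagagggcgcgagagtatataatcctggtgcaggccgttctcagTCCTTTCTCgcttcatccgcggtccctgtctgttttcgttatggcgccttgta
The runs are 10 bases long in Snhg18 and 9 in Snhg12. A window whose start lies within 100 bases of the deposited start was found for 40 members. Of these 40, 6 have a run of 8 or more there, against 7.89% of all 32851 windows. Snhg18 and Snhg12 are the only listed snoRNA hosts among the 6. The others are Gm20300, 9230116L04Rik, C430042M11Rik and 1810044D09Rik. The hosts Epb41l4aos, Snhg6 and Snhg20 lack either such a run or such a window. The letters TATAAA, searched on both strands, were in 5 of the 40 member windows and in 13.6% of all windows. A match is a description of letters, not evidence of use.

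The abundant lincRNAs made up a small and steep share of the transcriptome. Together they took 0.118% to 0.178% of reads in WT libraries and 0.151% to 0.174% in mutants. The top 5 members held 44.4% to 58.2% of the members' reads in a library. Mean CPM of totals fell from 400.5 for Neat1 to 1.85 for 1810044D09Rik, with 26 members above 10 CPM and 5 above 100. At the limit, 1700086O06Rik (1.87) and 1810044D09Rik (1.85) were inside, and 2900076A07Rik (1.84) and 6720427I07Rik (1.84) were outside.

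Most members are loci without a described function: 79 of 100 have names of the Gm, Rik or clone type. They lie on all 19 autosomes, and gene length ranges from 265 to 20771 bases, with a median of 2385.5. RefSeq matched 71 of them. It calls 62 of these long non-coding RNAs, but 7 protein-coding and 2 pseudogenes. Among the 7 are 1810058I24Rik and D930016D06Rik, which RefSeq names Thoc2l.

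**Figure D1:**
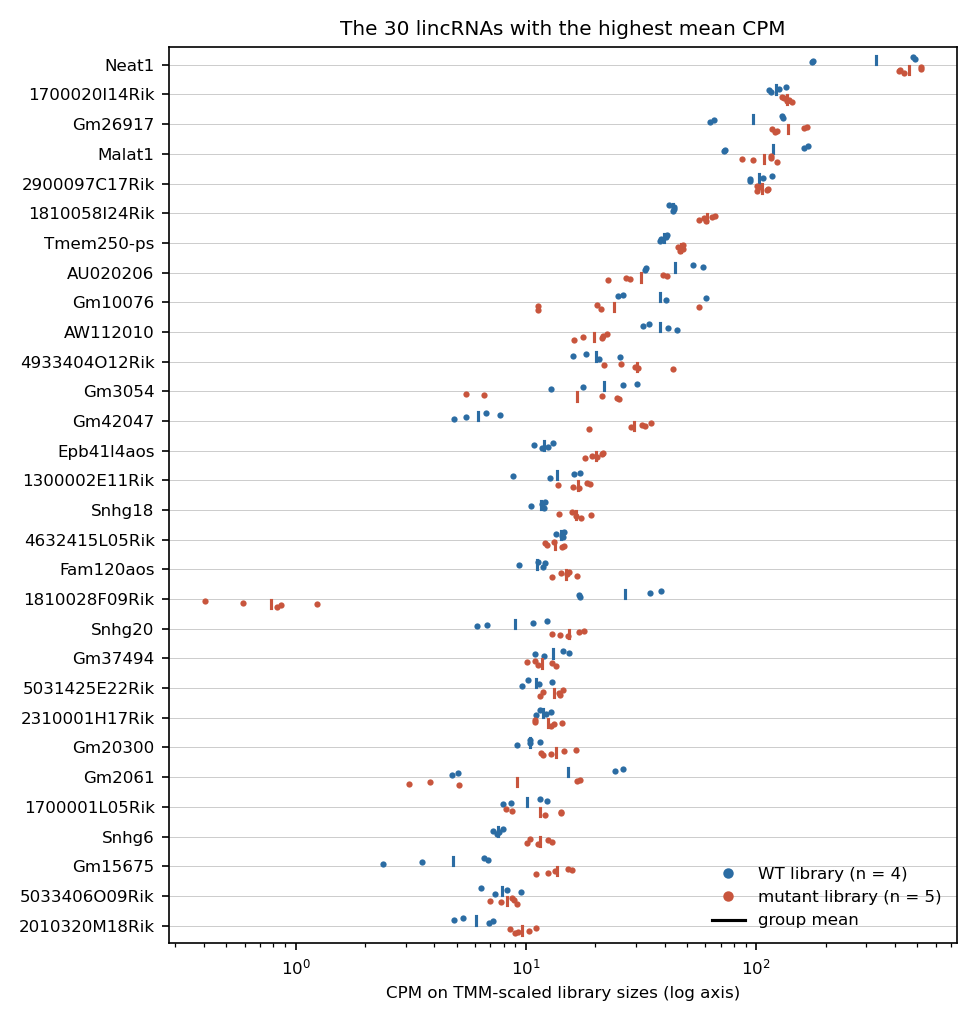
The 30 lincRNAs with the highest mean CPM, each library a point on a log axis of CPM on TMM-scaled library sizes, with WT in blue (n = 4), mutants in red (n = 5) and bars at group means. Most rows overlap or nearly touch, 1810028F09Rik lies far lower in mutants, and Gm42047 lies higher in all mutant libraries.

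Against WT, more of the abundant lincRNAs rose in mutant duodenum than fell. Of the 100 members, all of which passed the expression filter, 20 were higher, 4 were lower and 76 were not called at an adjusted p under 0.05 (edgeR quasi-likelihood test over 15416 genes). Over all genes tested, 15.4% were higher and 17.1% were lower. The share higher among members was thus near the background, and the share lower was below it. The median log2 fold change, mutant over WT, was 0.24 for members and 0.01 for all genes, and 68 members had a positive value against 51.2% of all genes. Under library totals alone, the scaling least favourable to higher calls, the members' median was 0.20 and that of all genes fell to -0.03. The members' median depended more on the WT pair: it was 0.10 without WT 1 and 2 and 0.39 without WT 3 and 4, while that of all genes stayed at 0.01 and 0.02. Without reference to a test, 21 members had all mutants above all WT libraries and 3 had all below, where 14.4% and 16.5% of all genes did. Changes were mostly modest, since only 2 of the higher members and 1 of the lower passed a 2-fold change.

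With close pairs summed, 5 members were higher and 2 were lower, where 2.23% and 6.78% of all genes tested were. The 5 were Gm42047, 1810058I24Rik, Epb41l4aos, Gm15675 and AL805899.1, and the 2 were 1810028F09Rik and AW112010. These 7 calls also held in each of the other fits run. Among them, 1810028F09Rik entered the 100 through WT alone, so the choice favours its difference. Called members were concentrated in the upper ranks: 9 higher and 2 lower in ranks 1 to 25, 9 and 1 in ranks 26 to 50, and 2 and 1 in ranks 51 to 100, where counts are smaller.

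**Figure D2:**
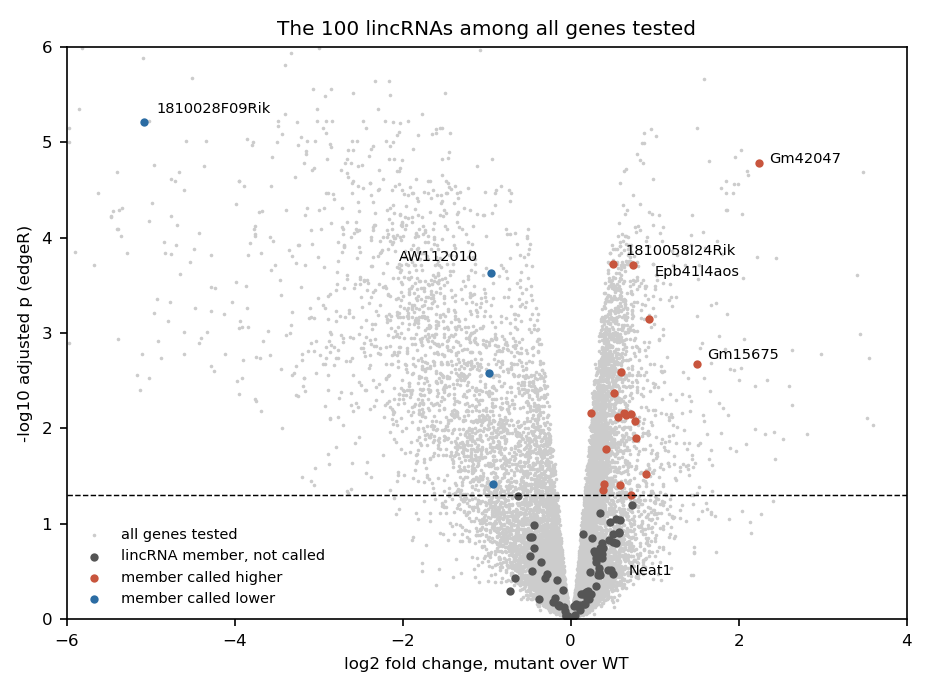
Log2 fold change, mutant over WT, against -log10 of the edgeR adjusted p for all genes tested (grey) and the 100 members (dark grey not called, red higher, blue lower), with the dashed line at an adjusted p of 0.05. Gm42047 and 1810028F09Rik stand apart among the members, and 83 genes lie outside the plotted range.

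Nuclear body RNAs come first by abundance. Neat1 (ENSMUSG00000092274, chr19:5824708-5845478, minus strand) measured 175.0, 176.2, 486.8 and 480.8 CPM in WT 1 to 4 and 436.1, 415.3, 419.3, 517.8 and 520.0 CPM in mutants 1 to 5. Mutants 1 to 3 lay between the WT pairs, nearer the high one, and mutants 4 and 5 lay just above it. The difference, 0.49 on the log2 scale (SE 0.34), did not pass (edgeR adjusted p = 0.306). Without WT 3 and 4 the value was 1.39, so its size depended on those libraries. That fit has a close pair as its whole WT group, so its p-value is not given.

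Malat1 split the WT libraries in the same way. It measured 72.5, 73.2, 161.7 and 166.9 CPM in WT and 122.4, 96.9, 86.4, 116.0 and 116.0 CPM in mutants. All mutants fell between the WT pairs, and the log2 fold change was -0.14 (SE 0.28; edgeR adjusted p = 0.738). Its direction depended on the WT pair: -0.61 without WT 1 and 2 and 0.56 without WT 3 and 4. Each of these fits has a close pair as its whole WT group, so their p-values are not given.

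Gm26917 was the third most abundant member and had the same WT split. It lies on chromosome 17, and an annotated 18S ribosomal RNA begins 11 bases beyond its end. It measured 63.0, 65.5, 131.2 and 129.0 CPM in WT and 120.3, 123.3, 117.5, 160.9 and 166.7 CPM in mutants. Its log2 fold change was 0.51 (SE 0.25; edgeR adjusted p = 0.154), or 1.10 without WT 3 and 4, which leaves a close pair as the whole WT group. The adjoining ribosomal RNA row measured 1937, 1955, 2656 and 3015 CPM in WT and 3425, 2992, 2083, 1606 and 1770 CPM in mutants. It shared the WT split of Gm26917, but in mutants it was lowest in 4 and 5, where Gm26917 was highest. How far ribosomal reads enter the count of Gm26917 was not tested.

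The split between WT pairs was common among members. In 12 of 100 members WT 3 and 4 differed from WT 1 and 2 by over 2-fold, against 5.18% of all genes. On the log2 scale it was 1.46 for Neat1, 1.17 for Malat1, 1.02 for Gm26917 and 1.41 for Mir17hg. The widest was Gm2061 at 2.36, and there mutants 4 and 5 also exceeded mutants 2 and 3 by 2.26. Gm2061 shares 19.3% of its exonic bases with the manganese transporter gene Slc30a10. Of genes for proteins of the same bodies, 2 of 16 for paraspeckles were higher (Matr3 and Dazap1) and 3 of 18 for nuclear speckles (Srsf1, Srsf3 and Srsf7), near the 15.4% of all genes, and 0 were lower in either list. None of these was called with close pairs summed.

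**Figure D3:**
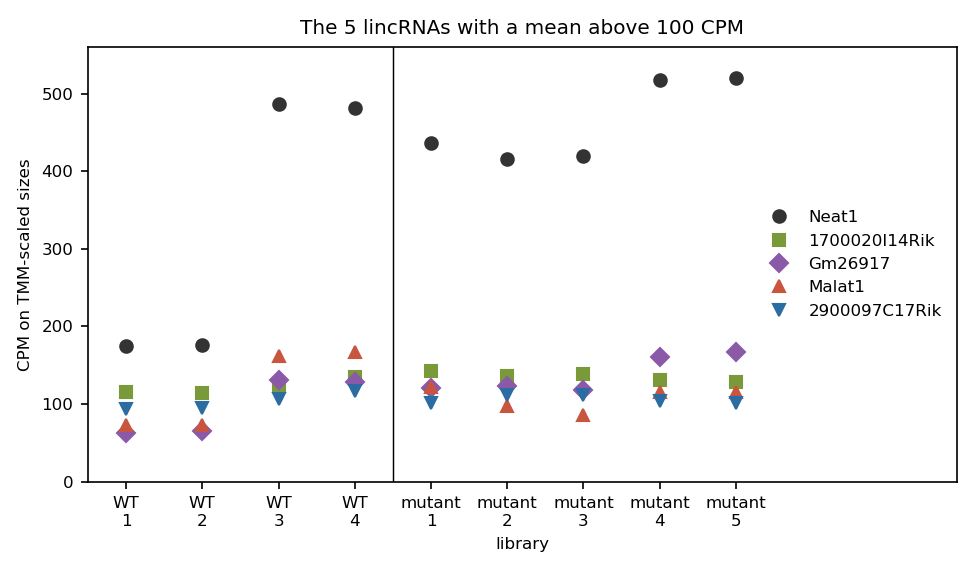
CPM on TMM-scaled sizes in each of the 9 libraries for the 5 lincRNAs with a mean above 100 CPM, with WT left and mutants right of the line. Neat1, Malat1 and Gm26917 are lower in WT 1 and 2 than in WT 3 and 4, while 1700020I14Rik (Cyrano) and 2900097C17Rik (Norad) stay between 94.2 and 143.1 in all libraries.

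The 2 abundant RNAs with described duties outside nuclear bodies were not called over the 9 libraries. Cyrano, whose miR-7 site is shown above, measured 115.9, 113.7, 124.9 and 134.6 CPM in WT and 143.1, 136.3, 138.1, 131.3 and 128.7 CPM in mutants. The groups overlapped slightly, and the log2 fold change of 0.15 (SE 0.07) did not pass (edgeR adjusted p = 0.128). With the trend on gene length removed it was 0.27 and passed (edgeR adjusted p = 0.0076).

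Norad, listed as 2900097C17Rik, is an RNA named for its activation by DNA damage. It measured 94.2, 94.3, 106.7 and 116.5 CPM in WT and 101.2, 111.5, 111.9, 104.1 and 101.0 CPM in mutants. The mutants lay within the WT range, with a log2 fold change of 0.04 (SE 0.08; edgeR adjusted p = 0.724). Per kilobase of gene length the order of the leading RNAs changed. Gm26917 was at 35.7 CPM per kb, Norad at 21.3, Neat1 at 19.3, Malat1 at 16.03 and Cyrano at 15.6. The highest densities were those of the short genes Gm10076 (80.2) and Gm3054 (71.9).

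Most of the snoRNA hosts among the members were called higher. Of the 5 members on the snoRNA host list, Epb41l4aos, Snhg18, Snhg20 and Snhg6 rose, and Snhg12 was not called. Over the full list, which also holds hosts outside the 100 members, 9 of 19 tested genes were higher and 0 were lower. Over all genes tested, 15.4% were higher and 17.1% were lower. The median log2 fold change of the list was 0.43, against 0.01 for all genes. With close pairs summed, where 2.23% of all genes were higher, 2 of the 19 were: Epb41l4aos and Zfas1, the host of the Snord12 family.

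Epb41l4aos, on chromosome 18, lies 341 bases from Epb41l4a and contains the snoRNA gene Gm23639. It measured 11.8, 12.4, 10.8 and 13.1 CPM in WT and 17.96, 20.3, 19.4, 21.4 and 21.7 CPM in mutants. All mutants were above all WT libraries. The log2 fold change was 0.75 (SE 0.10; edgeR adjusted p = 0.000193, and 0.03 with close pairs summed).

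Snhg6, which carries Snord87, measured 7.45, 7.65, 7.16 and 7.95 CPM in WT and 11.3, 10.1, 12.9, 12.5 and 10.5 CPM in mutants. The groups did not overlap, and the log2 fold change was 0.60 (SE 0.12; edgeR adjusted p = 0.00257, but 0.0807 with close pairs summed). The WT pairs were at the same level, with a log2 ratio of 0.

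Snhg18, which carries Snord123, measured 12.01, 10.5, 11.7 and 12.1 CPM in WT and 17.3, 16.6, 19.1, 13.9 and 15.9 CPM in mutants. The groups did not overlap, and the log2 fold change was 0.51 (SE 0.11; edgeR adjusted p = 0.00423, and 0.0897 with close pairs summed). The gene starts head to head with Sema5a, which encodes a semaphorin and lies 148 bases away. Sema5a went the other way, with a log2 fold change of -0.34 (SE 0.12; edgeR adjusted p = 0.0455, but 0.218 with close pairs summed).

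Snhg20 rose by 0.78 on the log2 scale (SE 0.20; edgeR adjusted p = 0.0125), from 6.15, 6.78, 10.7 and 12.3 CPM in WT to 15.2, 14.03, 13.0, 16.96 and 17.8 CPM in mutants. The WT pairs differed here too, and the adjusted p with close pairs summed was 0.118. Snhg12, with a pyrimidine start like that of Snhg18, measured 4.29 to 6.42 CPM in WT and 5.35 to 7.01 CPM in mutants. Its log2 fold change of 0.23 (SE 0.17) did not pass (edgeR adjusted p = 0.323; 95% interval -0.10 to 0.55).

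Hosts outside the 100 members included Gas5, at 0.47 on the log2 scale, Snhg1 at 0.47, Snhg8 at 1.00 and Zfas1 at 0.65, all called higher. Gas5 and Zfas1 were more abundant than most of the members, at 30.1 and 30.3 CPM in WT, but the deposited table classes them as processed transcripts. Snhg15 and Snhg17 had negative values, -0.28 and -0.30, and were not called.

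**Figure D4:**
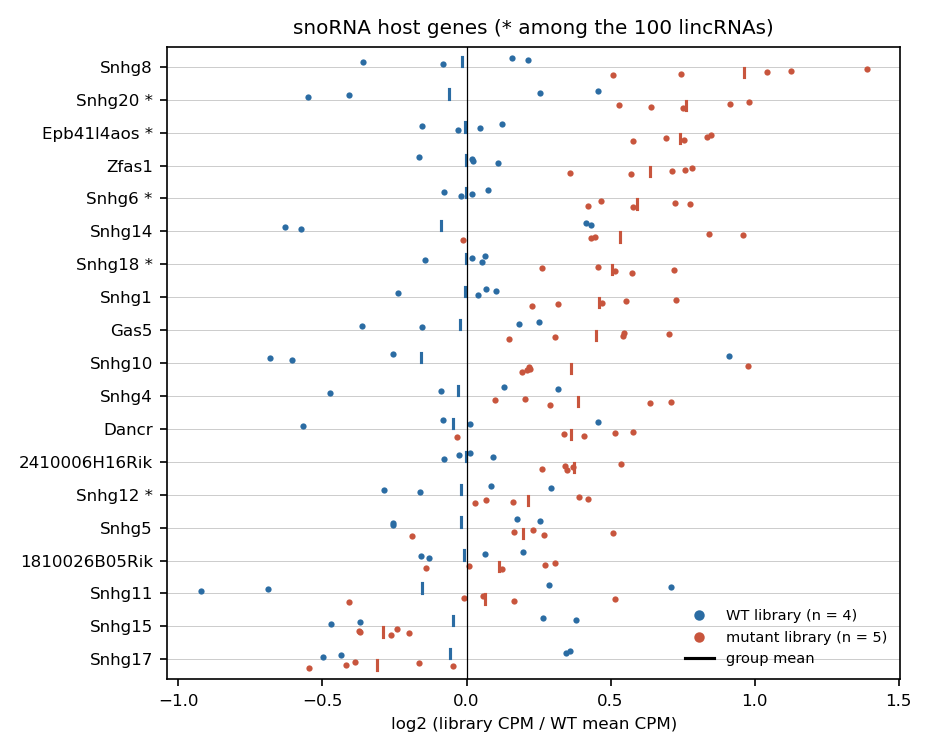
Log2 ratio of each library's CPM to the WT mean for the 19 tested snoRNA host genes, ordered by log2 fold change, with WT in blue (n = 4), mutants in red (n = 5), bars at group means and asterisks for the 5 that are among the 100 lincRNAs. For Epb41l4aos, Snhg6, Snhg18 and Snhg20 all mutants lie above all WT libraries.

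Of the 4 members that carry microRNA genes, AL805899.1 and Snhg20 (Mir6516; values above) rose, and Mir17hg and Meg3 were not called. AL805899.1 (chr4:88909855-88938521, minus strand), which spans Mir31, measured 4.56, 3.77, 4.45 and 4.04 CPM in WT and 6.81, 8.55, 7.98, 9.48 and 7.22 CPM in mutants. The groups did not overlap, and the log2 fold change was 0.93 (SE 0.15; edgeR adjusted p = 0.000712, and 0.04997 with close pairs summed, just under the threshold). Its exons share 9.75% of their bases with the Mir31 precursor. The mature miR-31 arms printed above carry no poly(A) tail and were not measured.

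Mir17hg measured 1.51, 2.03, 4.69 and 4.85 CPM in WT and 2.55, 3.82, 3.90, 2.65 and 2.60 CPM in mutants. The mutants lay inside the WT range (log2 fold change -0.06, SE 0.35; edgeR adjusted p = 0.914). Meg3, an imprinted RNA expressed from the maternal chromosome, was at 3.25 ± 1.19 CPM (SD, n = 4 WT) and 3.31 ± 1.03 CPM (SD, n = 5 mutants). The difference was 0.03 on the log2 scale (SE 0.30; edgeR adjusted p = 0.95). On the list of imprinted RNAs, 1 of 6 tested was called, Peg13, and it was lower. Of 6 tested genes on the microRNA host list, Mir22hg was higher (log2 fold change 0.46) and Dnm3os was lower (-1.86), and neither is a member. Each count of 1 in 6, or 16.7%, is near the 15.4% higher and 17.1% lower of all genes tested. With close pairs summed, Peg13, Mir22hg and Dnm3os were not called (edgeR adjusted p = 0.2, 0.0985 and 0.0552).

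1810058I24Rik (chr6:35252654-35263496, plus strand) was the most abundant member called, and it is not simply non-coding. It is also known as Stmp1, which encodes a short mitochondrial membrane peptide, and RefSeq classes it as protein-coding. It measured 43.6, 43.8, 43.8 and 41.9 CPM in WT and 60.6, 56.2, 59.3, 64.2 and 65.9 CPM in mutants. The WT libraries lay close together and all mutants were above them. The log2 fold change was 0.50 (SE 0.07; edgeR adjusted p = 0.00019, and 0.0333 with close pairs summed).

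Tmem250-ps, which follows it in the ranking and which RefSeq also classes as protein-coding, rose less. It measured 38.3, 38.7, 40.7 and 40.9 CPM in WT and 46.6, 48.2, 46.9, 45.5 and 48.0 CPM in mutants, with no overlap. It rose by 0.25 on the log2 scale (SE 0.06; edgeR adjusted p = 0.00691, but 0.189 with close pairs summed).

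The largest rise was that of Gm42047 (chr8:121833247-121841178, plus strand), a gene of 5647 bases without a described function. It measured 4.89, 5.51, 7.72 and 6.73 CPM in WT and 18.8, 28.6, 32.9, 31.8 and 34.8 CPM in mutants. All mutants were above all WT libraries. The log2 fold change was 2.25 (SE 0.20; edgeR adjusted p = 1.66e-05, and 0.00716 with close pairs summed). The nearest tested protein-coding gene, Klhdc4, lies 3678 bases away on the opposite strand and was not called (log2 fold change 0.23, SE 0.10; edgeR adjusted p = 0.0892).

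Gm15675 (chr1:130429781-130437191, minus strand) rose second most. It measured 2.40, 3.54, 6.85 and 6.55 CPM in WT and 11.0, 12.4, 13.4, 15.9 and 15.2 CPM in mutants. The groups did not overlap although WT 3 and 4 were above WT 1 and 2. The log2 fold change was 1.504 (SE 0.28; edgeR adjusted p = 0.00211, and 0.0493 with close pairs summed). It lies 1836 bases beyond Cd55, on the same strand. Cd55 encodes a cell surface protein that restrains complement, and it rose by 1.01 on the log2 scale, from 24.2 ± 2.40 CPM (SD, n = 4) to 48.8 ± 2.61 CPM (SD, n = 5), with an SE of 0.08 (edgeR adjusted p = 8.53e-06). Whether reads of Gm15675 belong to longer transcripts of Cd55 was not tested.

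Among marker lists, tuft cell genes also rose: 9 of 10 tested were higher, with a median log2 fold change of 1.59 and sums of 146.7 to 174.6 CPM in WT and 312.7 to 533.4 CPM in mutants. Of the tuft cell genes, 8 were higher with close pairs summed. Enterocyte markers were higher in 5 of 14 and lower in 0, or higher in 1 with close pairs summed. Their part in the rise of Gm42047 and Gm15675 was not tested.

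4 more of the higher members without overlap, none with a described function, changed moderately. In Gm32391 the log2 fold change was 0.77, with WT at 3.34 ± 0.668 CPM (SD, n = 4) and mutants at 5.69 ± 0.885 CPM (SD, n = 5). Gm44386 rose by 0.72, from 5.77 ± 1.25 to 9.48 ± 1.19 CPM. 2010320M18Rik, 102 bases from the start of Pik3r2, rose by 0.65, from 6.08 ± 1.15 to 9.59 ± 1.04 CPM. Gm43672, head to head with Tbl1xr1, rose by 0.64, from 6.05 ± 0.822 to 9.43 ± 1.30 CPM. All 4 passed over 9 libraries (edgeR adjusted p between 0.00692 and 0.00839), and none did with close pairs summed (0.092 to 0.125). Of their neighbours within 5 kb, Pik3r2 was higher by 0.22 (SE 0.07; edgeR adjusted p = 0.02865). Atp1b1, 4087 bases from Gm32391, was higher by 0.32 (SE 0.10; edgeR adjusted p = 0.0275). Tbl1xr1 was not called (0.27, SE 0.14; edgeR adjusted p = 0.166). With close pairs summed, neither Pik3r2 nor Atp1b1 was called (edgeR adjusted p = 0.309 and 0.233).

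The remaining higher calls were Fam120aos, Lppos, 4933404O12Rik, Gm20300, 4833418N02Rik, CT025731.4 and Gm45495, with edgeR adjusted p between 0.00755 for Lppos and 0.04998 for Gm45495. For all of these except Lppos, leaving out 1 library ended the call in at least 1 case: WT 2 alone for Fam120aos (edgeR adjusted p = 0.0519 without it), and more than 1 for the others. The highest adjusted p on leaving out 1 library was 0.11 for 4933404O12Rik (lost without WT 1, 3 or 4 or mutants 1, 2 or 3) and 0.122 for Gm20300 (without any WT library or mutants 2, 4 or 5). It was 0.113 for 4833418N02Rik (without any library but mutant 2), 0.0869 for CT025731.4 (without WT 2, 3 or 4 or mutants 1 or 3) and 0.137 for Gm45495 (without any library but WT 3 and mutant 1). 4933404O12Rik is the most abundant of them. It measured 20.7, 25.6, 15.99 and 18.3 CPM in WT and 43.6, 30.8, 29.8, 21.9 and 25.9 CPM in mutants, so the groups overlapped. They also overlapped for CT025731.4 and Gm45495, but not for Fam120aos, Lppos, Gm20300 or 4833418N02Rik. Lppos lost its call on leaving out a close pair.

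4 members fell. The deepest fall was that of 1810028F09Rik (chr14:51142870-51144117, minus strand), a single-exon gene of 1248 bases. It measured 17.2, 16.98, 34.6 and 38.4 CPM in WT and 0.828, 0.860, 1.24, 0.589 and 0.404 CPM in mutants, where it had 7 to 21 reads per library. Its mutant mean of 0.784 CPM is under the 1.85 CPM of the lowest member, so it entered the 100 through WT alone. Likewise Gm45495, with a WT mean of 1.79 CPM, passed through the mutants. For both, the choice favours a difference. The log2 fold change was -5.08 (SE 0.36; edgeR adjusted p = 6.17e-06, and 0.00151 with close pairs summed).

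The position of 1810028F09Rik is next to a pancreatic gene. It lies 881 bases beyond Rnase1, the secreted pancreatic ribonuclease, on the same strand. Rnase1 had a log2 fold change of -6.63 (SE 0.31; edgeR adjusted p = 9.94e-07), with 1137 ± 420.6 CPM in WT (SD, n = 4) and 11.4 ± 2.76 in mutants (SD, n = 5). The log2 ratio of WT 3 and 4 to WT 1 and 2 was 1.09 for 1810028F09Rik, 0.96 for Rnase1 and, as a median, 1.05 for the acinar markers. All 17 tested acinar markers were lower in mutants, and 1 of them, Reg2, had 0 reads in every mutant library. The part of acinar tissue or of Rnase1 transcripts in this result was not tested.

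AW112010 (chr19:11047617-11050566, minus strand) was the most abundant member that fell. In mouse immune cells it is known as an interferon-induced RNA that encodes a protein from a non-canonical start, and it is needed for mucosal immunity there. It measured 45.0, 41.5, 32.3 and 34.3 CPM in WT and 16.1, 21.3, 17.6, 21.6 and 22.5 CPM in mutants. All mutants were below all WT libraries, and the log2 fold change was -0.95 (SE 0.13; edgeR adjusted p = 0.000233, and 0.0168 with close pairs summed). Immune markers were lower too. Of those tested, 13 of 13 for macrophages and dendritic cells, 9 of 11 for T cells and 9 of 10 for plasma and B cells fell. These counts were 12, 5 and 6 with close pairs summed. Macrophage and dendritic cell markers summed to 343.7 to 382.2 CPM in WT and 55.5 to 88.3 CPM in mutants, T cell markers to 235.4 to 264.1 and 71.8 to 201.6 CPM, and plasma and B cell markers to 8140 to 8640 and 1695 to 4080 CPM. Their part in the fall of AW112010 was not tested.

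Gm15889 (chr8:94377872-94380317, plus strand) fell as far as AW112010, from 4.602, 5.62, 6.98 and 7.60 CPM in WT to 3.38, 3.17, 2.95, 3.77 and 2.54 CPM in mutants, without overlap. This was a log2 fold change of -0.97 (SE 0.19; edgeR adjusted p = 0.00266, but 0.0696 with close pairs summed). It shares 21.9% of its exonic bases with Gm15890.

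Tbx3os2 fell together with Tbx3, which encodes a T-box transcription factor and lies 371 bases away. Tbx3os2 measured 4.56, 3.25, 5.25 and 2.87 CPM in WT and 2.23, 1.24, 1.24, 2.77 and 3.00 CPM in mutants, so the groups overlapped. It had a log2 fold change of -0.93 (SE 0.31; edgeR adjusted p = 0.0379), and the call was lost without any 1 of 5 libraries: WT 1, WT 3 or mutants 1, 2 or 3 (highest edgeR adjusted p = 0.115). Tbx3 itself had a log2 fold change of -0.54 (SE 0.16; edgeR adjusted p = 0.0278), but mutants 4 and 5 were at the level of WT 3 and 4. With close pairs summed, neither was called (edgeR adjusted p = 0.178 for Tbx3os2 and 0.156 for Tbx3).

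Among the leading 15 members, several without a call varied widely inside the genotypes. Gm10076, which RefSeq calls a pseudogene, measured 40.6, 60.3, 25.1 and 26.5 CPM in WT and 11.3, 21.2, 56.1, 11.3 and 20.3 CPM in mutants. Its log2 fold change of -0.67 (SE 0.52; edgeR adjusted p = 0.368) became -1.25 without mutant 3 (edgeR adjusted p = 0.0272). Gm3054, a gene of 265 bases near Muc3, measured 12.8 to 30.3 CPM in WT and 5.48 to 25.2 CPM in mutants (log2 fold change -0.38, SE 0.51; edgeR adjusted p = 0.611). AU020206 ran from 32.7 to 58.6 CPM in WT and from 22.6 to 40.8 CPM in mutants (-0.48, SE 0.23; edgeR adjusted p = 0.139), and 1300002E11Rik from 8.75 to 17.1 and from 13.7 to 18.97 CPM (0.30, SE 0.18; edgeR adjusted p = 0.226).

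2 members with a described role in mice were not called. AI427809, known as Mexis in mouse macrophages, where it acts in induction of the cholesterol exporter gene Abca1, was at 7.58 ± 2.41 CPM (SD, n = 4 WT) and 7.25 ± 1.44 CPM (SD, n = 5 mutants). Its log2 fold change was -0.07 (SE 0.22; edgeR adjusted p = 0.833), and that of Abca1 was -0.93 (SE 0.35; edgeR adjusted p = 0.075). Bvht, described in mouse heart development, measured 3.02 ± 0.799 and 2.17 ± 0.952 CPM, a log2 fold change of -0.47 (SE 0.33; edgeR adjusted p = 0.315). Of 13 tested genes on the list of other described lncRNAs, Hnf4aos was higher (0.75) and 9530026P05Rik (-1.59) and Gm4759 (-2.59) were lower. These are 7.69% and 15.4% of the list, against 15.4% and 17.1% of all genes tested. With close pairs summed, only Gm4759 was called (edgeR adjusted p = 0.0291, against 0.113 for Hnf4aos and 0.0558 for 9530026P05Rik). Gm4759 had 10 reads over all mutant libraries. Cyrano and Norad are the only members on that list.

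Position bears on how these counts can be read. In 59 of 100 members the nearest protein-coding gene lay within 5 kb, in 16 the spans overlapped, and 33 members shared exonic bases with another gene. Of 54 members with a tested neighbour within 5 kb, 12 were higher. Their neighbours were higher in 6 cases, lower in 1 and not called in 5. Of all genes tested, 15.4% were higher and 17.1% were lower. With close pairs summed, Cd55 and Smim20 were still higher (edgeR adjusted p = 0.00411 and 0.0392). Ift22, Hint3, Pik3r2, Atp1b1 and the lower neighbour Sema5a were then not called (0.177 to 0.309). Among the 6 pairs with both higher, only Gm15675 with Cd55 kept both calls in that fit. Both lower members of the 54, 1810028F09Rik and Tbx3os2, had a lower neighbour. Beside the 40 members not called, 6 neighbours were higher, 5 were lower and 29 were not called. Tbc1d16, among those 5, went the other way from Gm11752, whose span it overlaps. Its log2 fold change was -1.92 (SE 0.27; edgeR adjusted p = 0.000367, and 0.0172 with close pairs summed), against 0.54 (SE 0.28) for Gm11752.

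Across these 54 pairs, Spearman's rho between the log2 fold changes was 0.30 and Pearson's r was 0.83. Without 1810028F09Rik and Rnase1, r was 0.27 and rho 0.26 over 53 pairs. Beyond 5 kb, over 34 pairs, rho was 0.20. Pairs share libraries and, in part, reads, so these values are descriptions.

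**Figure D5:**
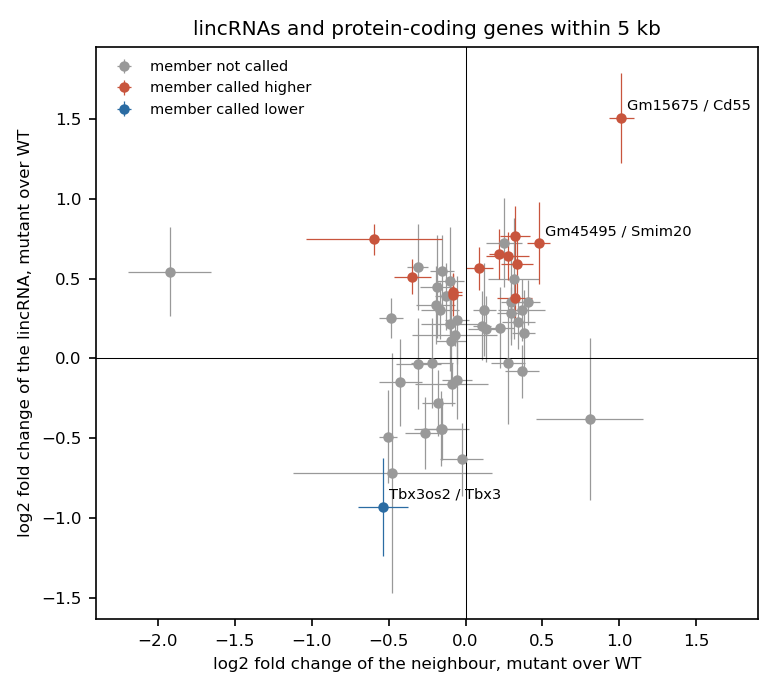
Log2 fold change, mutant over WT, of each lincRNA against that of its nearest protein-coding gene, for 53 pairs within 5 kb (1810028F09Rik with Rnase1 lies outside the axes and was left out), with bars of 1 SE. Gm15675 with Cd55 stands at the upper right and Tbx3os2 with Tbx3 at the lower left. Gm11752 with Tbc1d16 lies at the far left, with a positive value for the lincRNA and a negative value for its neighbour. Most pairs lie near the origin.

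The 169 tested lincRNAs that were too low for the 100 held 10 higher and 9 lower genes, with a median log2 fold change of 0.09. These are 5.92% and 5.33%, against 15.4% and 17.1% of all genes tested. With close pairs summed, 2 were higher and 4 were lower. Gene length moved with the fold change: Spearman's rho was -0.14 over the 100 members and -0.21 over the 15416 genes tested. Members are shorter than the median gene tested, at 2385.5 against 3976 bases. With the length trend removed, the members' median was 0.20, and 15 were higher and 5 were lower.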

How the data were processed

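The authors deposited 1 table of raw read counts per gene for 9 duodenal libraries, without normalization. Per the submitters' processing notes, the tools were HISAT2 2.0.5 (an aligner) and featureCounts 1.5.0-p3 (a read counter), and the builds named are GRCh37, hg19 and mm39. The table's coordinates matched GENCODE M21 (GRCm38) for 53585 of 54532 gene identifiers and for 96 of the 100 members, so coordinates are given as GRCm38. The sources used here do not give the strand setting or the handling of shared reads. Per the labels' protocols, RNA was poly(A)-selected, primed with random hexamers and copied with dTTP, so strand is not marked.

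Mutant (n = 5) was compared with WT (n = 4), grouped by the labels, by edgeR 4.0.16 under R 4.3.3 (quasi-likelihood test, TMM scaling, filterByExpr defaults, robust dispersion, a design of genotype alone). Adjusted p-values are Benjamini-Hochberg over all 15416 genes tested, and genes were called at an adjusted p under 0.05. Log2 fold changes are mutant over WT, with the standard error (SE) from the coefficient and its F statistic, and 95% intervals are 1.96 SE each way. CPM are on TMM-scaled library sizes, and ranking used CPM of column totals. In every library 3 reads are at most 0.186 CPM, and such floors cover counting error only. The calling step was also run on simulated counts. These were drawn independently for each library, so that run does not bear on the close pairs.

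Members and lists were chosen with earlier results of these data known. Named genes are the 15 most abundant members, up to 10 higher and 10 lower called members with the largest change and no overlap, members on role lists, the genes at the limit of 100, and neighbours within 5 kb. The other members named were chosen after their values were seen. The neighbour of a member is the nearest protein-coding gene in the deposited coordinates. Alternatives were other scalings, filters, limma 3.58.1 voom fits, DESeq2 1.42.0, a gene length correction, removal of acinar and immunoglobulin genes, close pairs summed, other rankings, and leaving out libraries or pairs.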

Additional observations from a re-analysis of the deposited data

Results flagged for a closer look

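Among 66 groups of libraries screened (33 named genes in 2 genotypes), 3 held a library far from the others by Dixon's criterion, which chance meets in about 1 in 20 groups. 1810058I24Rik was at 41.9 CPM in WT 4, below 43.6 to 43.8 CPM in the other WT libraries, all of which are below the mutants. Gm10076 was at 56.1 CPM in mutant 3, against 11.3 to 21.2 CPM in the other mutants, its close partner mutant 2 included. 1700086O06Rik was at 2.48 CPM in mutant 5, against 1.65 to 1.89 CPM in the other mutants.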

How the results depend on the processing

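Over the 9 libraries 20 members were higher and 4 were lower. With close pairs summed the counts were 5 and 2, and with the close pair as a random block (voom, correlation 0.715) they were 7 and 2, where 7.6% and 10.7% of all genes were called. Without WT 1 and 2, with the close pair WT 3 and 4 as the whole WT group, they were 12 and 7. Voom with quality weights gave 7 lower, as did ranking the lincRNAs in WT alone, which shares 91 members and uses the contrast. Among the 67 members without shared exonic bases, 13 were higher, fewer by construction. Leaving out 1 library at a time gave 15 to 20 higher and 3 to 5 lower. Of the 20 higher calls 14 were kept throughout, and of the 4 lower calls 3. For all but mutant 1, the close partner of the library left out stayed in. Leaving out each close pair in turn kept 7 of the 20 higher and 3 of the 4 lower calls. Removing Gm26917, an alternative added after seeing the data, gave 20 and 4. Counts under the other scalings, filters, DESeq2 and rankings stayed within 1.5 times. Malat1 changed direction without WT 3 and 4, at 0.56. Mouse numbers gave no pairing across genotypes: same-numbered libraries had correlations of 0.036, 0.136, -0.135 and 0.117, and with the replicate block 14 members were higher and 5 were lower. Except where stated, the cause of these changes was not tested. The median SE was 0.13 in ranks 1 to 25 and 0.27 in ranks 76 to 100, and the highest in ranks 1 to 25 was 0.75, so SE did not follow depth alone.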
